A study of Mus musculus with 19 samples.

Results

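Aminoacyl-tRNA synthetases join each amino acid to its tRNA, and their 36 genes were followed in single mouse blastocysts with and without UPF2. Of the 36 genes, 20 encode enzymes (or enzyme subunits) of the cytoplasm and 16 encode enzymes of the mitochondrion, which carry names ending in 2. They were chosen as a list of gene names, found by symbol among the 41388 genes of the count table. The symbol matched for 35 genes, and *Mars1* was found under its older name *Mars*. RNA of 19 single embryos at E3.25, the early blastocyst stage, was sequenced, 8 with the genotype Upf2 -/- (*Upf2*-null) and 11 with Upf2 +/+ (control). The labels name no treatment, litter or batch, and both genotypes came from superovulated *Upf2*-heterozygous females mated with heterozygous males. The null allele lacks exons 2 and 3 and arose from a *Upf2*-floxed allele on the C57BL/6 background through a Cre driven by the *E2a* promoter. A truncated UPF2 protein can still be made from that allele, and each library is the average of a whole embryo. Transcript levels of a whole embryo cannot tell fewer cells of a type from less RNA per cell.

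UPF2 is a core factor of nonsense-mediated RNA decay (NMD), which removes mRNAs with a premature or otherwise unusual stop codon. Each synthetase recognises 1 amino acid and its tRNAs, and the charged tRNAs then feed the ribosome. The cytoplasm and the mitochondrion translate separately and mostly use separate synthetases, all encoded in the nucleus. *Kars* and *Gars* serve both compartments, which is why no partner of theirs is among the mitochondrial genes. *Dars* and *Qars* have no partner on the list either, and *Eprs* encodes a fusion of the glutamyl and prolyl enzymes. Many cytoplasmic synthetase genes are targets of ATF4, which acts in the integrated stress response. *Atf4* mRNA itself and *Ddit3*, which encodes the stress factor CHOP, are known substrates of NMD.

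Total counts ran from 4068350 to 5993745 in *Upf2*-null embryos and from 4056072 to 5854659 in controls. Levels below are TMM-normalized CPM, the count of a gene scaled to a common library size, and levels compared between genes are CPM per kb of the union of a gene's annotated exons. Between 14522 and 17084 genes were detected in an embryo. Control embryo 5 (14522) and *Upf2*-null embryo 2 (15547) had the fewest of their groups, and the counts of calls below were also computed without them and without control embryos 2 and 4. Markers of cumulus and granulosa cells, which could have come with the zygotes, were nearly absent, and their 9 genes summed to between 0 and 0.898 CPM with 2 of them at 0 in every embryo. Trophectoderm markers (7 genes, 747 to 1615 CPM in all embryos) and primitive endoderm markers (6 genes, 712 to 986 CPM) were present. Oocyte markers (7 genes) summed to between 0.531 and 81.2 CPM. The summed epiblast markers (7 genes) ran from 639 to 883 CPM with UPF2 and from 554 to 635 CPM without it, with no overlap. Counts over the whole *Upf2* gene include exons outside the deletion and so do not check the genotype, and their log2 fold change was 0.66 (edgeR adjusted p = 0.185).

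In control blastocysts cytoplasmic synthetase mRNAs were the more abundant class. The 20 cytoplasmic genes summed to 5922 ± 924 CPM and the 16 mitochondrial genes to 1395 ± 192 CPM (SD, n = 11). Per length, the median level was 56.7 CPM per kb for the cytoplasmic genes and 12.4 CPM per kb for the mitochondrial genes. Each mitochondrial gene was set against the cytoplasmic gene for the same amino acid, which gave 16 pairs. The cytoplasmic gene had the higher mean level per kb in all 16 pairs, with ratios from 1.15 (*Yars* over *Yars2*) to 20.4 (*Nars* over *Nars2*) and a median of 3.58. In 12 of the 16 pairs that order held in each of the 19 embryos. The exceptions were *Eprs* with *Ears2* and with *Pars2*, *Yars* with *Yars2*, and *Farsa* with *Fars2*. The last pair was reversed only in 2 *Upf2*-null embryos. Per kb of the longest annotated transcript instead, the cytoplasmic gene again had the higher mean in all 16 pairs, and in each embryo in 15 of them. The ratios then ran from 1.54 (*Rars* over *Rars2*) to 19.9 (*Mars1* over *Mars2*) with a median of 3.33, and that of *Yars* over *Yars2* was 2.09.

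By the exon union, the highest level per kb among cytoplasmic genes was that of *Farsb*, which encodes the beta subunit of phenylalanyl-tRNA synthetase, at 138 ± 12.5 CPM per kb (SD, n = 11). *Rars* (125 ± 13.6 CPM per kb), *Nars* (119.9 ± 19.8 CPM per kb) and *Gars* (114 ± 17.2 CPM per kb) followed. The lowest was *Vars*, the valyl enzyme, at 13.1 ± 6.95 CPM per kb, and just above it lay *Eprs* at 21.9 ± 1.91 CPM per kb. Among mitochondrial genes *Rars2*, the mitochondrial arginyl enzyme, was highest at 83.6 ± 13.9 CPM per kb. *Yars2* came next at 38.7 ± 8.82 CPM per kb, and *Aars2* (3.46 CPM per kb) and *Vars2* (1.59 ± 1.13 CPM per kb) were lowest. The valyl gene was thus the least abundant of each class. Most neighbours in these orders were closer to each other than the larger of their SDs, 17 of 19 neighbouring pairs among the cytoplasmic genes and 14 of 15 among the mitochondrial genes. The steps beyond that spread were *Wars* over *Sars*, *Eprs* over *Vars*, and *Rars2* over *Yars2*. The order among the highest depended on the length used. By the longest transcript *Rars* (191 CPM per kb) and *Nars* (190.2 CPM per kb) lay above *Farsb* (177 CPM per kb), and *Eprs* stood at rank 14 in place of 19 among 20 at 70.2 CPM per kb. *Vars*, *Rars2* and *Vars2* kept their places by either length.

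**Figure D1:**
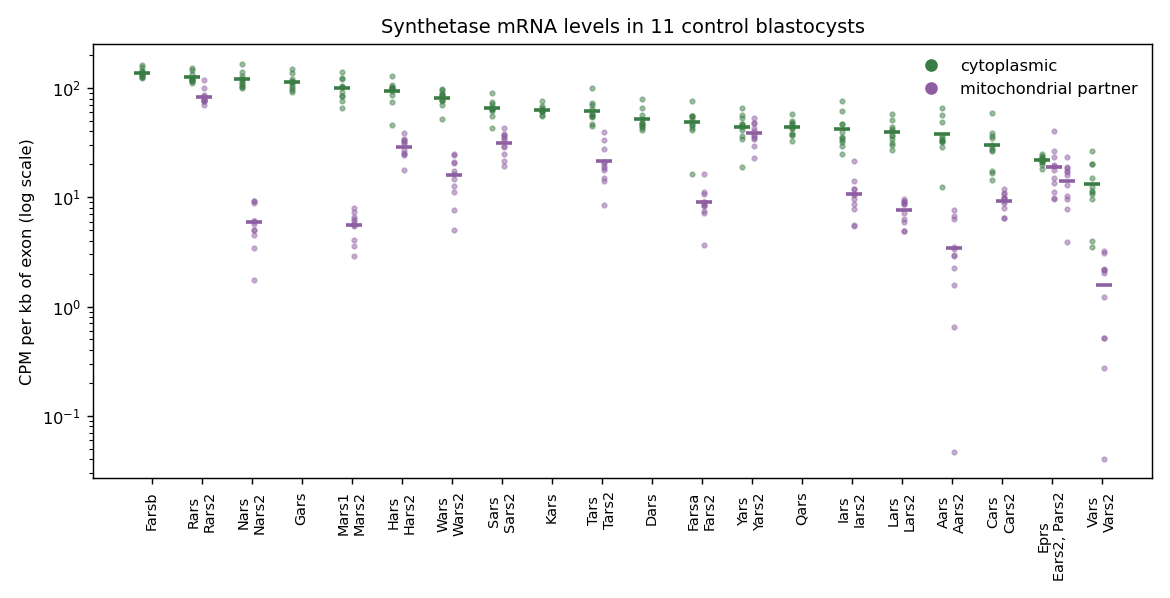
Level of each synthetase mRNA in the 11 control blastocysts, in CPM per kb of exon on a log axis, ordered by the cytoplasmic gene. Points are embryos and bars are means (green, cytoplasmic; purple, the mitochondrial gene for the same amino acid); *Nars* and *Nars2* lie 20.4-fold apart, *Yars* and *Yars2* 1.15-fold.

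The first question was whether loss of UPF2 changed synthetase mRNAs, in either class. No member passed edgeR's quasi-likelihood test at a Benjamini-Hochberg adjusted p under 0.1, neither among the 20 cytoplasmic nor among the 16 mitochondrial genes, and all 36 genes were tested. Of all 17137 genes tested, 0.0175% were called lower and 0.175% higher, a rate at which 36 genes hold fewer than 1 call. At an unadjusted p under 0.05, 1 of 20 cytoplasmic genes (*Qars*) and 0 of 16 mitochondrial genes were lower, where the background was 7.38% of all genes. No member was higher at that p, where the background was 5.15%. DESeq2 called 1 member at an adjusted p under 0.1, again *Qars* as lower, beside 0.432% of all genes lower and 0.595% higher. Limma voom with quality weights called 0 members, beside 24 genes lower and 90 higher of all 17137. At an unadjusted p under 0.05 it had 1 member lower and 1 higher, beside 955 genes lower and 856 higher.

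The 2 classes lay close to each other and to the genes as a whole. The log2 fold change was below 0 for 13 of 20 cytoplasmic genes, with a median of −0.04, and for 10 of 16 mitochondrial genes, with a median of −0.06. Over all tested genes the median was −0.02, and 8965 of 17137 were below 0. Without UPF2 the cytoplasmic transcripts summed to 5773 ± 982 CPM and the mitochondrial transcripts to 1345 ± 199 CPM (SD, n = 8). The ratio of the cytoplasmic to the mitochondrial sum was 4.25 ± 0.377 with UPF2 and 4.28 ± 0.175 without it. Of the 16 mitochondrial genes, 10 had a lower fold change than their cytoplasmic partner and the others a higher one. In all 36 members the values of the 2 genotypes overlapped, and the share of all tested genes that do so was not computed.

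These tests bound the size of any change rather than show that there was none. The 95% interval of the log2 fold change lay within a 2-fold change in either direction for all 20 cytoplasmic genes and for 14 of 16 mitochondrial genes. The exceptions were *Aars2* (−1.24 to 1.08) and *Vars2* (−1.39 to 1.29), which are among the least abundant members. Within a 1.5-fold change lay the intervals of 15 cytoplasmic and 5 mitochondrial genes. The tightest interval was that of *Farsb*, from −0.16 to 0.11, and the interval of *Qars* was the only one that left out 0.

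**Figure D2:**
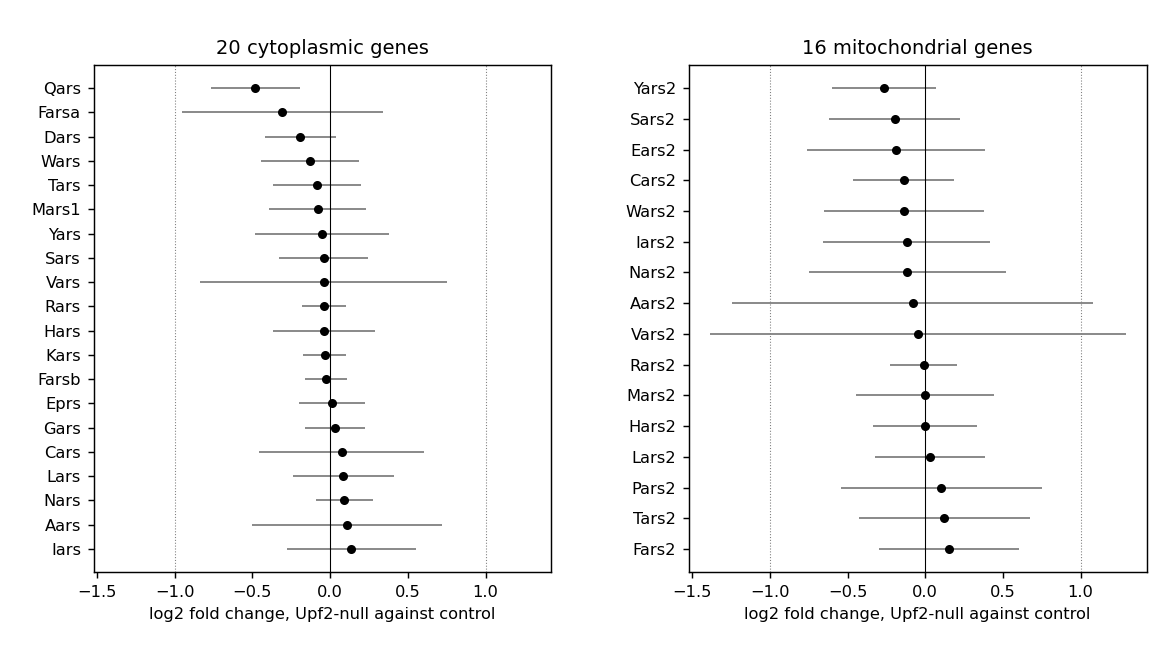
Log2 fold change of each member, *Upf2*-null (n = 8) against control (n = 11), with its 95% interval from the edgeR fit, cytoplasmic genes left and mitochondrial genes right. The dotted lines mark a 2-fold change, and *Qars*, at −0.48, is the only gene whose interval leaves out 0.

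*Qars* encodes glutaminyl-tRNA synthetase, a member of the multi-synthetase complex, and lies on chromosome 9 from 108507706 to 108515941 (GRCm38, plus strand). In *Upf2*-null embryos its level ran from 133 to 299.9 CPM with a median of 190.2 CPM. In controls it ran from 217 to 376 CPM with a median of 283 CPM. The *Upf2*-null embryos were mostly below the controls, 7 of 8 under the control median, but embryos 1, 3 and 7 lay within the control range. The lowest control was embryo 6, and the lowest *Upf2*-null embryos were 4 and 5. The log2 fold change was −0.48 with an SE of 0.14 and an interval from −0.77 to −0.19, at an unadjusted p of 0.00218 that edgeR adjusted over all genes to 0.216. The adjusted p was 0.0883 with DESeq2 and 0.167 with limma voom, so the call depended on the tool. It also depended on 1 embryo: without *Upf2*-null embryo 3, the highest of its group, edgeR's adjusted p was 0.0994. The summed epiblast markers did not overlap between the same groups, and how often other sums fail to overlap was not computed. Of the 7 genes 5 were below and 2 above 0, and 2, *Nanog* (−0.47) and *Fgf4* (−2.33), were lower at an unadjusted p under 0.05. Their part in the value of *Qars* was not tested. The mitochondrion has no glutaminyl enzyme of its own, and it makes its charged tRNA for glutamine by amidation, through the GatCAB complex. Of that pathway the subunit gene *Gatc* had a log2 fold change of −0.49 (67.8 ± 15.0 CPM against 95.3 ± 23.4 CPM, edgeR adjusted p = 0.262). *Gatb* had −0.01, *Qrsl1* −0.09 and *Mtfmt*, which formylates the initiator methionyl-tRNA, −0.07.

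*Farsa* and *Farsb* encode the alpha and beta subunits of the cytoplasmic phenylalanyl enzyme, a tetramer of equal numbers of each, and they varied in different ways. *Farsa*, on chromosome 8 from 84856989 to 84869257, ran from 38.7 to 277 CPM in *Upf2*-null embryos (median 188 CPM) and from 74.4 to 343 CPM in controls (median 223 CPM). *Upf2*-null embryos 4 and 7 and control embryo 6 lay far below the rest, at 38.7, 49.8 and 74.4 CPM, while every other embryo had at least 161 CPM. *Farsb*, on chromosome 1 from 78417975 to 78488897, stayed between 330.3 and 441 CPM in *Upf2*-null embryos (median 345 CPM) and between 326 and 428 CPM in controls (median 351 CPM). Its highest values were in *Upf2*-null embryo 4 and control embryo 6, where *Farsa* was low. The log2 fold change was −0.31 with an SE of 0.31 for *Farsa* (adjusted p = 0.823 by edgeR) and −0.03 with an SE of 0.07 for *Farsb* (adjusted p = 0.954 by edgeR).

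The log2 ratio of *Farsa* to *Farsb* counts was below 0 in all 19 embryos and ran from −3.50 to −0.13. Its mean was −0.78 ± 0.63 with UPF2 (SD, n = 11) and −1.27 ± 1.21 without it (SD, n = 8). The difference of −0.49 was smaller than either SD. An exact permutation test of the genotypes over 75582 arrangements gave a two-sided p of 0.252. It rested largely on the low embryos: without *Upf2*-null embryo 4 it was −0.17, without *Upf2*-null embryo 7 it was −0.28, and without control embryo 6 it was −0.67.

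**Figure D3:**
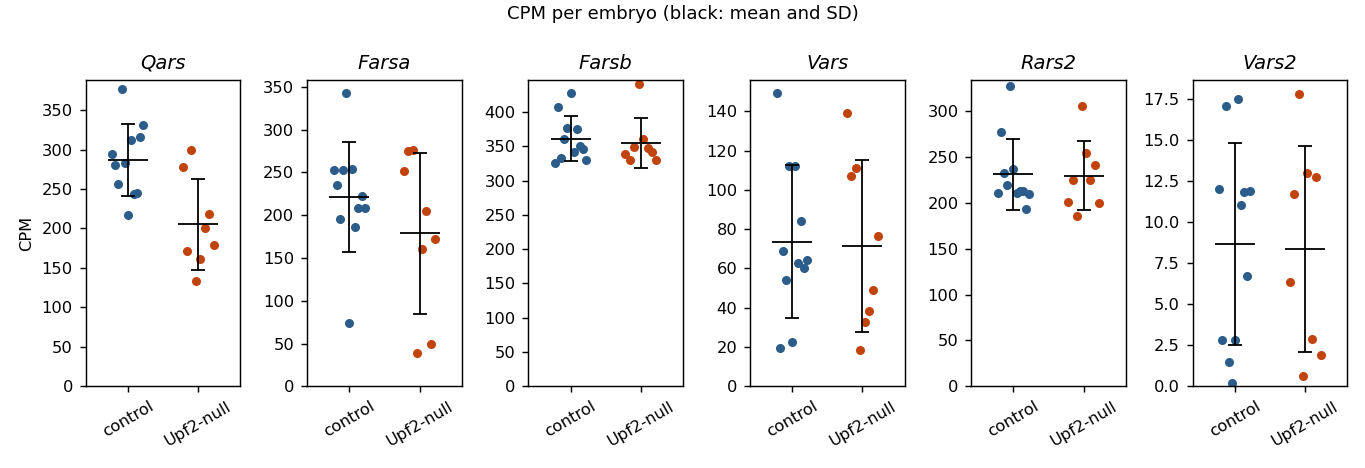
CPM of 6 members in each embryo, controls in blue (n = 11) and *Upf2*-null in orange (n = 8), with the mean and SD in black and each axis starting at 0. *Qars* is at 133 to 299.9 CPM without UPF2 and 217 to 376 CPM with it, *Farsa* has 3 embryos under 75 CPM, and *Farsb* varies little.

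Of the other members with the highest or the lowest level per kb in their class, none differed between the genotypes beyond the spread between embryos. *Vars*, on chromosome 17 from 35000987 to 35016322, ran from 18.5 to 139 CPM in *Upf2*-null embryos (median 62.8 CPM) and from 19.6 to 149.6 CPM in controls (median 64.1 CPM). The spread within each genotype was more than 7-fold, and the log2 fold change was −0.04 with an SE of 0.38. *Rars2*, on chromosome 4 from 34614957 to 34660167, ran from 186 to 306 CPM in *Upf2*-null embryos (median 225 CPM) and from 193 to 327 CPM in controls (median 214 CPM), a log2 fold change of −0.01 with an SE of 0.10. *Vars2*, on chromosome 17 from 35655634 to 35667592, ran from 0.653 to 17.8 CPM in *Upf2*-null embryos (median 9.02 CPM) and from 0.221 to 17.5 CPM in controls (median 11.1 CPM). Its lowest value, in control embryo 5, was 1 count, and its interval is the widest of the members.

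The cytoplasmic genes were next divided by their known link to ATF4. The 12 linked genes, from textbook knowledge, are *Aars*, *Cars*, *Eprs*, *Gars*, *Iars*, *Lars*, *Mars1*, *Nars*, *Sars*, *Tars*, *Wars* and *Yars*. Of these, 5 lay below 0 and 7 above 0 on the log2 scale, with a median of 0.02, and none passed edgeR's test or an unadjusted p under 0.05. The largest was that of *Iars*, the isoleucyl enzyme, at 0.14 with an interval from −0.28 to 0.55, and the lowest that of *Wars*, the tryptophanyl enzyme, at −0.13 with an interval from −0.44 to 0.19. Their summed level ran from 2703 to 4648 CPM in *Upf2*-null embryos and from 2837 to 5488 CPM in controls. *Upf2*-null embryo 4 and control embryo 6 were lowest, and control embryo 5 was highest. The second highest control, embryo 1, was at 4625 CPM.

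Of the mRNAs for the stress factors ATF4 and CHOP, the latter passed edgeR's test. *Atf4* was at 196 ± 35.2 CPM in controls and at 265 ± 27.1 CPM without UPF2, a log2 fold change of 0.43 with an adjusted p of 0.111 by edgeR and 0.0146 by DESeq2. *Ddit3* rose from 26.1 ± 9.87 CPM to 66.0 ± 14.0 CPM, a log2 fold change of 1.34 with an SE of 0.23 and an adjusted p of 0.0251 by edgeR. *Mars1* lies on the opposite strand to *Ddit3* and their exons share 68 bases, 1.99% of those of *Mars1*, which had a log2 fold change of −0.08. Among 29 other textbook ATF4 targets, *Ddit3* included, 19 lay above 0 and 10 below 0 on the log2 scale, with a median of 0.11. Of these 29 genes edgeR called 1 higher (*Ddit3*) and 0 lower, beside 0.175% and 0.0175% of all genes. At an unadjusted p under 0.05, 4 of the 29 were higher and 2 lower, beside 5.15% and 7.38% of all genes. The other 3 higher genes were *Atf3* (3.68, from 0.358 ± 0.820 to 5.00 ± 5.91 CPM), which encodes a stress-induced transcription factor, *Nupr1* (1.51), a stress-induced chromatin protein, and *Slc7a1* (1.43), a cationic amino acid transporter. The lower genes were *Phgdh* (−0.55), which encodes the first enzyme of serine synthesis, and *Cebpg* (−0.47), a dimerisation partner of ATF4. *Asns*, which encodes asparagine synthetase and is a classical target, had 0.08.

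Within a genotype, embryos with more *Atf4* mRNA had less of the 12 linked synthetases. Pearson's r of the log2 values was −0.66 over the 11 controls (Spearman's rho −0.60) and −0.73 over the 8 *Upf2*-null embryos (rho −0.74). Without the 2 embryos farthest from the median of *Atf4*, r was −0.25 in controls and −0.67 in *Upf2*-null embryos, so in controls the relation rested on embryos 5 and 6. The 29 other ATF4 targets moved with the synthetases outside the linked list too. In controls their r was 0.65 with the 12 linked genes (rho 0.44), 0.68 with the 8 other cytoplasmic genes (rho 0.41) and 0.36 with the mitochondrial genes (rho 0.30). Without embryos 3 and 5 these were −0.03, −0.06 and −0.06. In *Upf2*-null embryos r was 0.80 (rho 0.86), 0.91 (rho 0.76) and 0.76 (rho 0.86), and 0.88, 0.80 and 0.86 without the 2 farthest. All these values come from the same libraries and share their normalization.

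ATF4 binds DNA at a composite element, searched here as TGATGNAA on both strands of the RefSeq promoter windows (GRCm38.p6, from 250 bases before to 50 after a start site). Of the 36 members, 27 had a window, 13 cytoplasmic and 14 mitochondrial. The element was in 5 members, all cytoplasmic and all among the 8 linked genes with a window, and in 0 of the 14 mitochondrial windows. Of all 32851 windows, 3.97% held it. One stretch is shown for each of these members, because their genes carry the letters of the element; capitals mark the element, and each is read 5′ to 3′ on the strand where the element was found.
*Yars* (chr4:129189895-129189924, plus strand): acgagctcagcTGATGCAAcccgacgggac
*Gars* (chr6:55037960-55037989, minus strand): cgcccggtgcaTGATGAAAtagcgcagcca
*Aars* (chr8:111033840-111033869, minus strand): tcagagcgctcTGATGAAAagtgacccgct
*Iars* (chr13:49682126-49682155, minus strand): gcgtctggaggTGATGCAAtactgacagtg
*Tars* (chr15:11399655-11399684, plus strand): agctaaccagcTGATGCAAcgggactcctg
The stricter form TGATGCAAT, part of the same element, was in 2 members, *Iars* among them, and in 0.192% of all windows. The 5 genes with the element had log2 fold changes of −0.05 (*Yars*), 0.03 (*Gars*), 0.11 (*Aars*), 0.14 (*Iars*) and −0.08 (*Tars*). The element is a match of letters and not a shown binding site.

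The 8 cytoplasmic genes outside the ATF4-linked list were *Dars*, *Farsa*, *Farsb*, *Hars*, *Kars*, *Qars*, *Rars* and *Vars*. All had a log2 fold change below 0, from −0.48 (*Qars*) to −0.03 (*Farsb*), with a median of −0.04. Of all 17137 tested genes 8965 were below 0, with a median of −0.02. Under 31 alternatives the sign turned in 8 for *Vars*, 5 for *Hars*, 2 for *Rars* and 1 for *Farsb*. It turned in 0 for *Dars*, *Farsa*, *Kars* and *Qars*. *Dars*, the aspartyl enzyme, had the third lowest value of the class at −0.19, with 197 ± 19.2 CPM against 225 ± 48.9 CPM and an adjusted p of 0.540 by edgeR. *Kars* (−0.04) had an interval from −0.18 to 0.10 and *Rars* (−0.04) likewise one from −0.18 to 0.10. The 8 enzymes of the multi-synthetase complex, the assembly of cytoplasmic synthetases, were 5 below and 3 above 0 with a median of −0.04. Its scaffold genes *Aimp1* (0.00), *Aimp2* (−0.01) and *Eef1e1* (−0.10) did not pass the test either. By fold of the catalytic domain, with *Eprs* left out because it holds 1 enzyme of each class, 13 of 18 class I and 10 of 17 class II enzyme genes were below 0, with medians of −0.05 and −0.04.

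Of the mitochondrial genes *Yars2*, the tyrosyl enzyme, had the lowest log2 fold change, −0.27 with an interval from −0.60 to 0.07, and an adjusted p of 0.569 by edgeR. *Sars2* (−0.20) and *Ears2* (−0.19) were next. The highest were *Fars2*, the phenylalanyl enzyme, at 0.15 with an interval from −0.30 to 0.60, *Tars2* (0.12) and *Pars2* (0.10). The values of *Hars2* and *Mars2* were 0.00, with intervals from −0.33 to 0.34 and from −0.44 to 0.45.

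The larger differences lay between embryos of the same genotype. The coefficient of variation over the 11 controls had a median of 21.7% for cytoplasmic genes, from 8.72% (*Eprs*) to 52.9% (*Vars*), where counting alone gives a median of 2.67%. For mitochondrial genes the median was 37.7%, from 16.7% (*Rars2*) to 72.3% (*Aars2*), where counting alone gives 4.78%. The summed cytoplasmic level ran from 4632 CPM in control embryo 6 to 8070.3 CPM in control embryo 5. Control embryo 5 was also the embryo with the fewest genes detected, and the next highest control was at 6758 CPM. In *Upf2*-null embryos the sum ran from 4470.3 CPM (embryo 4) to 6805 CPM (embryo 3). The summed mitochondrial level followed the cytoplasmic sum, with r = 0.82 (rho 0.81) in controls and 0.98 (rho 0.90) in *Upf2*-null embryos, and 0.66 and 0.96 without the 2 embryos farthest from the median. The cytoplasmic sum and the number of genes detected had r = −0.78 (rho −0.78) in controls, −0.44 without embryos 4 and 5, and −0.13 (rho 0.19) in *Upf2*-null embryos.

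Within controls the median pairwise correlation was highest among the ATF4-linked genes, as a description of libraries that share their normalization. The median Pearson's r of log2 CPM over the 11 controls was 0.65 among the 66 pairs of linked genes, of which 64 were above 0. It was 0.37 between linked and other cytoplasmic genes and 0.29 among the other cytoplasmic genes. Among the 120 mitochondrial pairs it was 0.14, and between the classes 0.10. None of these medians was computed without control embryos 5 and 6, the highest and lowest controls in the linked sum. The closest pairs were *Nars* with *Tars* (0.96), *Farsa* with *Hars* (0.95), *Hars* with *Sars* (0.95) and *Iars* with *Lars* (0.94). *Farsa* was unlike its partner subunit, with r = −0.52 to *Farsb*. *Farsb* was closest to *Rars* (0.80), and *Rars* to *Rars2* (0.85). *Farsb* and *Vars* had r = −0.78. *Qars* was closest to *Yars* (0.77) and *Yars2* (0.63).

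**Figure D4:**
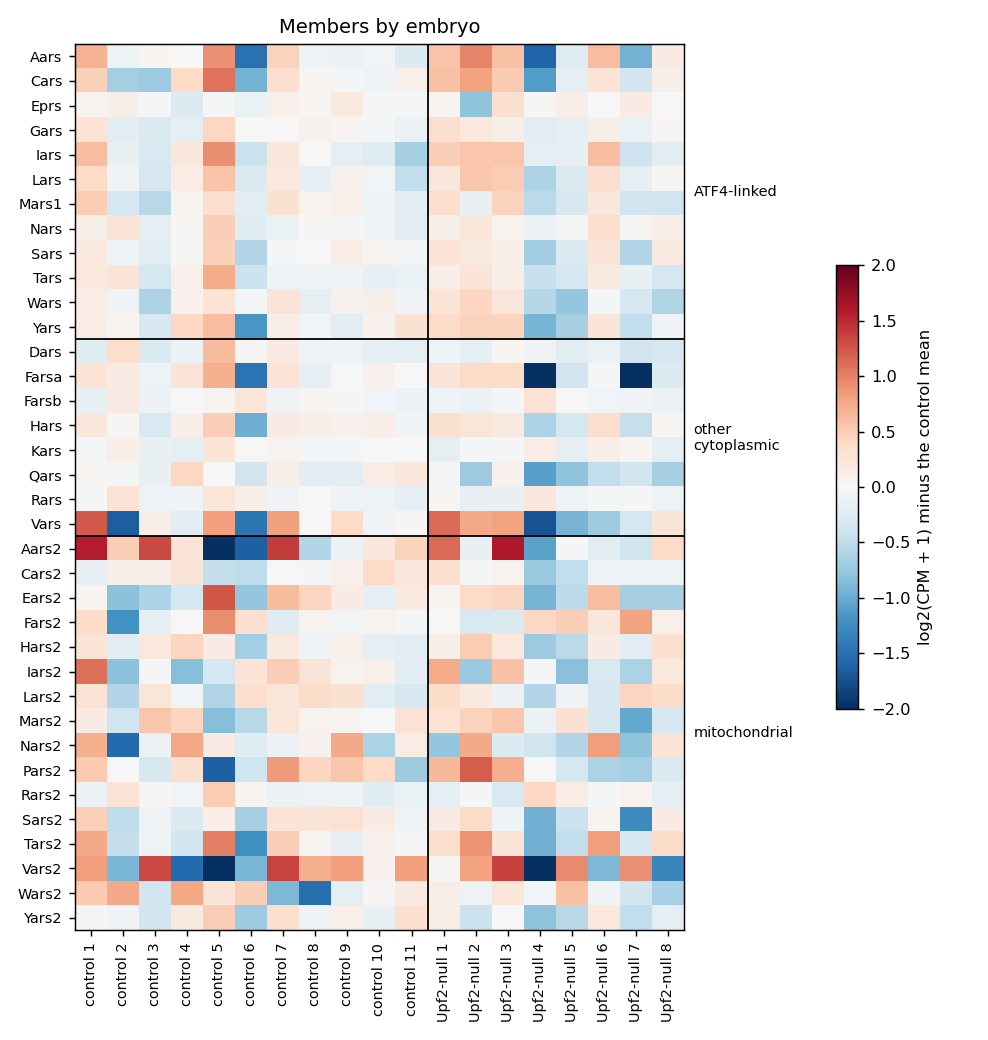
Log2(CPM + 1) of each member minus its control mean, by embryo (columns) and member (rows), with horizontal lines between ATF4-linked, other cytoplasmic and mitochondrial genes and a vertical line between genotypes. *Upf2*-null embryos 4 and 7 and control embryo 6 are low in *Aars*, *Farsa*, *Hars* and *Yars*, and *Farsb* and *Rars* are nearly even across embryos.

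These differences between embryos were set beside a property of the whole library, and they moved with it mainly in *Upf2*-null embryos. For each embryo the deviation of log2 CPM from the mean of the gene was fitted on the GC content of the gene's longest transcript, over 10532 genes with a mean of at least 5 CPM and without the members. The slope ran from −0.51 log2 units per 10% GC (embryo 4) to 0.24 (embryo 3) in *Upf2*-null embryos and from −0.36 (embryo 2) to 0.31 (embryo 1) in controls. The genotypes overlapped, with means of −0.05 ± 0.30 (SD, n = 8) and 0.03 ± 0.22 (SD, n = 11). The summed cytoplasmic level had r = 0.91 (rho 0.98) with the slope over *Upf2*-null embryos and 0.31 (rho 0.37) over controls. Without the 2 embryos with the most distant slopes these were 0.79 and 0.11. For the mitochondrial sum r was 0.94 (rho 0.88) and 0.69 (rho 0.70), and 0.83 and 0.34 without those embryos. For the 12 ATF4-linked genes r was 0.92 (rho 0.95) and 0.39 (rho 0.51), and 0.79 and 0.15 without those embryos. The log2 difference of *Farsa* and *Farsb* had r = 0.92 (rho 0.90) over *Upf2*-null embryos and 0.49 (rho 0.43) over controls, and 0.85 and 0.00 without those embryos.

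The members did not all move with the slope in the same direction. Over all 19 embryos r was above 0.5 for 11 of 20 cytoplasmic and 10 of 16 mitochondrial genes, beside 18.7% of the genes in the fit. It was below −0.5 for *Farsb*, *Rars* and *Rars2*, beside 15.7% of the genes in the fit. *Vars*, with a GC content of 60.9%, had r = 0.85, and *Sars2*, with 60.1%, had 0.89. *Farsb* has a GC content of 46.3% (r = −0.70) and *Rars2* one of 44.1% (r = −0.74). Others of low GC content had r above 0, such as *Mars2* (38.8%, r = 0.52) and *Yars2* (46.3%, r = 0.61). Across members, GC content and this r had a correlation of 0.49. GC content ran from 41.2% to 60.9% in the cytoplasmic genes and from 38.8% to 60.1% in the mitochondrial genes, around medians of 49.8% and 49.4%. What sets the slope of an embryo, and its part in the spread of the synthetases, was not tested. With the slope as a covariate in edgeR, 0 members were called, beside 56 genes lower and 72 higher of all 17137. The medians were −0.01 and −0.00 beside −0.04 over all genes, and *Qars* had a log2 fold change of −0.45 with an adjusted p of 0.130.

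**Figure D5:**
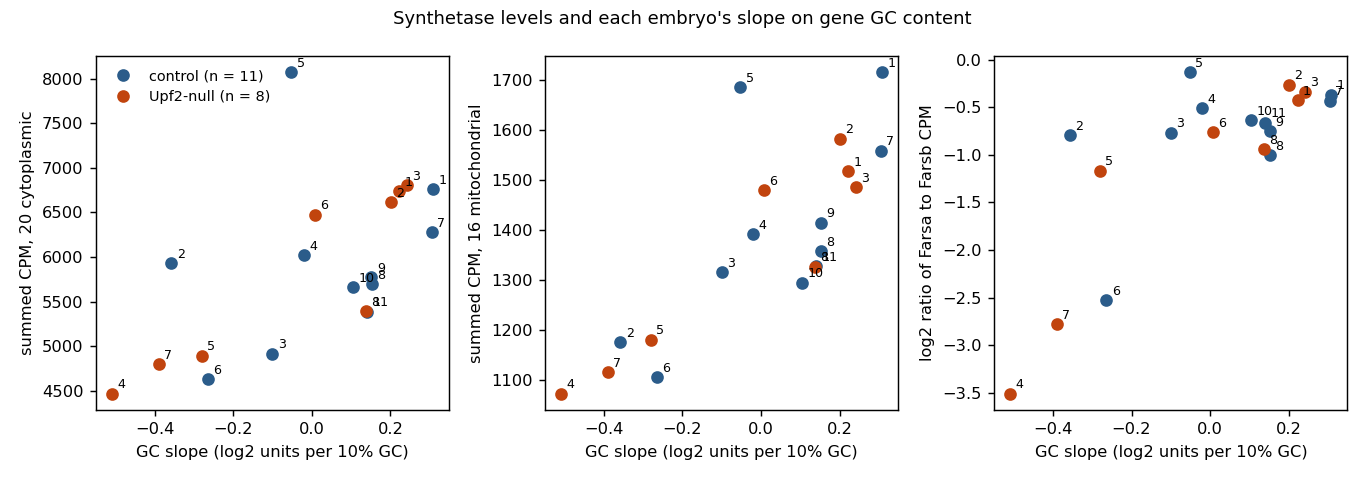
Summed CPM of the 20 cytoplasmic genes, summed CPM of the 16 mitochondrial genes, and the log2 ratio of *Farsa* to *Farsb* CPM, each against the GC slope of the embryo (log2 units per 10% GC), controls in blue and *Upf2*-null in orange with embryo numbers. The 4 embryos with the lowest cytoplasmic sums (*Upf2*-null 4, 5 and 7, control 6) have slopes below 0, and control 5 lies above the others in the first panel.

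In GENCODE M21 many members have transcripts annotated as NMD substrates. Of the members, 12 of 20 cytoplasmic genes have such a transcript (30 of their 176 transcripts), as do 9 of 16 mitochondrial genes (18 of 116). The share of all genes with such a transcript was not computed. *Qars* has the most, 10 of its 34 transcripts. The 21 members with such a transcript had a median log2 fold change of −0.05 and the other 15 of −0.04. The deposited transcript models merged over all embryos hold 91 unannotated models that share a splice junction with 19 of the cytoplasmic genes, and 88 that do so with 12 of the mitochondrial genes. *Rars2* has 26 of these and *Wars2* 14. Such models were not counted for other genes. The merged models carry no level per embryo, so counts over the whole gene can hide a change of 1 isoform. Exons of *Iars2* overlap those of *Rab3gap2* on the opposite strand over 2034 bases (22.9% of its exons), and *Hars* and *Hars2* overlap head to head over 195 bases. The counting strand is not given in the sources used here, so reads from such overlaps cannot be told apart. Exons of *Aars* share 1326 bases (14.3% of its exons) with *Exosc6* on the same strand, where no strand setting separates the reads. *Exosc6* is not in the count table.

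The rest of the tRNA charging pathway was also near 0. Of 19 tRNA maturation genes, 9 were below and 10 above 0 with a median of 0.01, and *Tsen15* (0.28), a subunit of the tRNA splicing endonuclease, and *Clp1* (−0.33), an RNA kinase bound to that enzyme, had unadjusted p under 0.05. Of 6 genes of editing and recycling, 5 were above 0 with a median of 0.12. *Prorsd1*, which encodes a protein related to prolyl-tRNA editing domains, had 0.32 at an unadjusted p under 0.05. Of 4 genes of selenocysteinyl-tRNA synthesis and use, 3 were above 0 with a median of 0.13, and *Pstk*, the kinase of that pathway, had 0.33 at an unadjusted p under 0.05. The 6 genes that deliver charged tRNAs to the ribosome were 5 below and 1 above 0, with a median of −0.10. The 4 genes of mitochondrial amidation and formylation were all below 0 with a median of −0.08, and *Gatc* was the only one under that p. None of these genes passed edgeR's adjusted threshold. At an unadjusted p under 0.05 by edgeR, 5.15% of all genes were higher and 7.38% lower. Of the 13 mitochondrially encoded mRNAs, 8 were tested, 7 of them below 0 with a median of −0.04.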

How the data were processed

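Deposited raw counts per Ensembl gene were made by the authors, who aligned adapter-trimmed paired reads with STAR 2.5.2a (GRCm38), filtered PCR duplicates (SAMtools) and counted with featureCounts. SMARTer v4 cDNA of each embryo went into a Nextera XT library. The deposited scaled table, named as TPM, holds signal values that the authors normalized with edgeR. Each value is a count times 1 factor per embryo, 100% of values are whole reads within 0.01, and none is divided by gene length. The authors' merged transcript models hold exon positions without values.

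The 17137 genes that reached 10 counts in any embryo entered edgeR 4.0.16 (robust quasi-likelihood test, TMM factors, genotype alone), with calls at a Benjamini-Hochberg adjusted p under 0.1. SE is the log2 fold change over the root of the F statistic, and intervals use its degrees of freedom. The *Farsa* to *Farsb* ratio used counts + 0.5 and an exact permutation test. Alternatives used DESeq2 1.42.0, limma 3.58.1 and the settings under the closing section. Log2 CPM of single genes, in correlations and GC slopes, used a prior count of 2. Exon lengths, transcripts and GC content are from GENCODE M21, promoters from RefSeq. Scripts were tested on simulated data. Depth was 4056072 to 5993745 counts per embryo. The intervals of fold changes include the variation between embryos, and the coefficients of variation from counting alone do not. Software was R 4.3.3 and Python 3.11.15 (pandas 2.3.3, scipy 1.17.1, matplotlib 3.10.9, numpy 2.4.6).

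Groups are the genotypes in the labels. Members, lists and tests were chosen with earlier results of these data known. Values per embryo are given for members with an unadjusted p under 0.05, the highest and lowest member of each class, *Farsa* and *Farsb*. Other genes are named if they are list members under that p, or *Upf2*, *Atf4* or *Ddit3*. *Gatb*, *Qrsl1*, *Mtfmt*, *Asns*, *Aimp1*, *Aimp2* and *Eef1e1* were named after their values were seen. Spike-in RNAs were added to the embryos and were not analysed here. A list gene under that p and a promoter stretch are not reported here.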

Additional observations from a re-analysis of the deposited data

Results flagged for a closer look

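Of 41 values examined in the 8 *Upf2*-null embryos (36 members and 5 sums or ratios), 3 had 1 embryo far from the rest by Dixon's test at the 95% level, and chance alone gives about 1 in 20. *Eprs* was at 225 CPM in *Upf2*-null embryo 2, where the next lowest embryo had 391 CPM. *Farsb* was at 441 CPM in *Upf2*-null embryo 4, where the next highest had 361 CPM. *Rars* was at 470.4 CPM in the same embryo, where the next highest had 409 CPM. *Upf2*-null embryo 4 also had the lowest GC slope, and that slope's part in these values was not tested. The 11 controls were not examined in this way.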

How the results depend on the processing

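The count of members called stayed at 0 in each direction and class under all alternatives except for the cytoplasmic genes lower, where it was 1 with DESeq2 and from 0 to 1 when each embryo was left out (1 without *Upf2*-null embryo 3). At an unadjusted p the mitochondrial genes lower were from 0 to 1 when each embryo was left out, 1 without *Upf2*-null embryo 6 or control embryo 6. *Qars* kept its sign under 31 of 31 alternatives, from −0.58 to −0.41, with unadjusted p under 0.05 in 31. Its log2 fold change was −0.49 with DESeq2, and −0.58 without *Upf2*-null embryo 3. The class medians moved by less than the SD of such a median between control embryos (cytoplasmic 0.22, mitochondrial 0.28). That bar is wide beside medians of −0.04 and −0.06, so it shows little about their stability. The cytoplasmic median ran from −0.07 (without control embryo 6) to 0.02 (without *Upf2*-null embryo 4). The mitochondrial median ran from −0.16 (limma voom) to 0.01 (without control embryo 1). In 14 of 36 members the sign held under every alternative.

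The replicate numbers pair nothing that the labels name: of 8 same-numbered pairs, 2 correlated above 0.1, from −0.26 to 0.14, and 0 embryos were closest to their own number. With the replicate block 0 of all 17137 genes were called, members included, with 375 lower and 316 higher at an unadjusted p under 0.05 by edgeR. The medians were −0.05 and −0.05, and *Vars2* had 0.051. The sign also turned for *Farsb* with library totals alone (0.0071), for *Rars2* with limma voom (0.054), library totals alone (0.030), without controls 2 and 4 (0.0052) and without *Upf2*-null 2 and control 5 (0.055), and, with the GC slope as a covariate chosen after seeing the data, for *Vars* (0.12) and *Vars2* (0.22). Leaving out each embryo gave a range from −0.25 to 0.11 for *Vars*, −0.082 to 0.045 for *Rars2* and −0.30 to 0.12 for *Vars2*. The cause was not tested. By the longest transcript *Farsb* was at 177, below *Rars* and *Nars*, and *Rars2* at 124 CPM per kb, and the *Yars* to *Yars2* ratio (added after seeing the data) was 2.09. The stricter promoter element left 2 members. Reads recovered from the scaled table, also added after seeing the data, called 0 members, beside 3 genes lower and 30 higher in all. The lowest counts of *Vars2* and *Aars2* were 1, both in control embryo 5. Their coefficients of variation over controls were 71.1% and 72.3%, where counting alone gives 14.9% and 10.8%.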
